A study of Mus musculus with 12 samples.

Results

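The 8 genes Acat2, Hmgcs1, Mvk, Pmvk, Mvd, Idi1, Fdps and Fdft1 encode enzymes of the route that carries acetyl-CoA through mevalonate to squalene. They were taken by gene name from a deposited table of 35275 genes, in which all 8 had 1 row each. All 8 also passed the filter on low values that left 12251 genes for testing. The expression of these genes was followed in 12 mouse RNA sequencing libraries given as liver, 3 in each of 4 groups. KO HFD is a group labelled as Hnf4a liver knockout on a high fat diet, and KO chow carries the same genotype label with vivarium chow. WT HFD and WT chow are the wild-type groups on the high fat diet and on vivarium chow. No label states the driver of the deletion, the sex and age of the mice, or the composition and duration of the diet. The design text describes the 3 samples of a group as biological replicates. Expression is given as FPKM, a fragment count scaled to gene length and to library depth.

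The mevalonate pathway turns acetyl-CoA into isopentenyl and dimethylallyl pyrophosphate, the building blocks of all isoprenoids, and its main product in hepatocytes is cholesterol. Its enzymes are known targets of the transcription factor SREBP2 (gene Srebf2), which is held in the endoplasmic reticulum when sterols are plentiful and released to the nucleus when they are scarce. Sterol regulatory elements in the promoters of these genes bind SREBP2, usually together with NF-Y, which binds the letters CCAAT, and with Sp1, which binds GC boxes.

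Hnf4a transcript and the liver markers bear on how the group labels can be read. Hnf4a, the nuclear receptor gene named in the genotype label, was at 108, 98.8 and 138 FPKM in KO HFD 1 to 3, at 158, 132 and 129.9 FPKM in KO chow 1 to 3, at 133, 116 and 120.2 FPKM in WT HFD 1 to 3, and at 126, 75.8 and 0.0973 FPKM in WT chow 1 to 3. On HFD the log2 difference of KO HFD from WT HFD was −0.11 (SE 0.16, adjusted p 0.788 by limma without WT chow 2 and 3). On chow that of KO chow from WT chow was 2.67 with 12 libraries (SE 1.36, adjusted p 0.273) and 0.15 against WT chow 1 alone. No test called the transcript lower in the libraries labelled KO, and directions between genotypes below are directions between libraries labelled KO and WT. Depth ran between 15705196 and 20311766 reads on genes. WT chow 2 and WT chow 3 stood apart, with a median correlation to the other libraries of 0.806 and 0.576 against 0.948 to 0.979 for the rest. The summed FPKM of 9 hepatocyte markers was 51163 to 74689 in KO HFD, 59555 to 63919 in KO chow and 78031 to 85397 in WT HFD, and it was 74307, 22253 and 39.1 in WT chow 1 to 3. WT chow 3 thus held next to none of the liver markers, and it had a summed FPKM of 16775 over 8 adipocyte markers, against 5.98 to 127 in the other 11 libraries. The members were therefore tested with all 12 libraries and with the 10 libraries without WT chow 2 and 3, in which the single library left on that side is taken to have the spread of the other groups. For other genes, Hnf4a among them, some values are given with 10 libraries only.

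The start regions of 4 members are printed to show how unlike they are in these motifs, namely the 1 with a sterol regulatory element, the 1 with the most CCAAT, the 1 with neither, and that of Mvd. RefSeq (GRCm38.p6) gave start windows for 6 of the 8 members, and a second one for Pmvk. In the 250 bases before each start, the sterol regulatory element TCACNCCAC, searched on both strands, was found before Hmgcs1 alone, 137 bases before the start. That motif was in 1.05% of 32851 mouse start windows of the same length. CCAAT on either strand occurred 5 times before Mvk, 3 times before Hmgcs1, 2 times each before Mvd and Idi1, 1 time in 1 of the 2 Pmvk windows, and 0 times before Acat2. Of all windows, 33.8% held at least 1. The GC box GGGCGG occurred 2 times each before Mvk and Hmgcs1, 1 time each before Mvd, Idi1 and Acat2 and 0 times in both Pmvk windows. Of all windows, 32.7% held it. A match describes these letters only, and other spellings of the same elements were not searched. The RefSeq starts are not always the gene starts given below. By those gene coordinates, the CCAAT and GC box matches of Idi1 lie inside the gene. The second Pmvk window also lies inside its gene, and the first ends well before it. Below, capitals mark TCACNCCAC and CCAAT on either strand, 5′ to 3′ in the direction of the gene. Hmgcs1 is shown at chr13:119690101-119690350 (plus strand) and Mvd at chr8:122443423-122443672 (minus strand). Mvk is shown over the 209 bases that separate it from the divergent neighbour Mmab, at chr5:114444060-114444268 (plus strand). Acat2, which holds neither motif, is shown over 228 bases at chr17:12960748-12960975 (minus strand).
Hmgcs1: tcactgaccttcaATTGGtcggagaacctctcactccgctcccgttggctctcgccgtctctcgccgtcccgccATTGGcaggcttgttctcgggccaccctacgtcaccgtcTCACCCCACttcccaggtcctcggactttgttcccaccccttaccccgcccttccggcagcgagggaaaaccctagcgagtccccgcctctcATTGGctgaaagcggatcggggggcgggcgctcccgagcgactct
Mvd: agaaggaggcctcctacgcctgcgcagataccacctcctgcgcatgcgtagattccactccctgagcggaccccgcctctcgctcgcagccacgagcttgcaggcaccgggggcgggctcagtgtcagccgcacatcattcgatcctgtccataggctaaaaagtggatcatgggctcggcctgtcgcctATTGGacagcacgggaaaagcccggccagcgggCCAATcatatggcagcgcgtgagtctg
Mvk: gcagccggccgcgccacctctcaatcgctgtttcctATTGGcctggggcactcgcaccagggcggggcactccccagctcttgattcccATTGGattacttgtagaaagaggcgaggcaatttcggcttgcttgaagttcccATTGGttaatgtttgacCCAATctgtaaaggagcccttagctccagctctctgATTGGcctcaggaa
Acat2: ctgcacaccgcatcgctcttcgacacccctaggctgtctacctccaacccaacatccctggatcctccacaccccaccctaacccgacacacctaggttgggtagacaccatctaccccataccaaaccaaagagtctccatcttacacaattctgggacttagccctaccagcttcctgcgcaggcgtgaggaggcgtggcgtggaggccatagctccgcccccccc

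The pathway begins with 2 condensations of acetyl-CoA. Acat2 (ENSMUSG00000023832, chromosome 17, 12942890 to 12960747, minus strand) encodes the cytosolic thiolase that joins 2 acetyl-CoA into acetoacetyl-CoA. It was at 20.49, 19.3 and 29.7 FPKM in KO HFD 1 to 3, at 23.6, 28.1 and 30.4 FPKM in KO chow, at 16.9, 23.5 and 17.6 FPKM in WT HFD, and at 29.3, 13.8 and 64.7 FPKM in WT chow. Acat2 varied least of the 8, with a highest value 1.80 times the lowest over the 10 libraries, and its groups overlapped between diets in both genotypes; WT chow 2 and 3 held its lowest and highest values. Hmgcs1 (ENSMUSG00000093930, chromosome 13, 119690462 to 119708086, plus strand) encodes the cytosolic HMG-CoA synthase, the second step. It was at 30.4, 15.2 and 27.7 FPKM in KO HFD 1 to 3, at 68.6, 93.5 and 61.4 FPKM in KO chow, at 14.8, 17.6 and 26.4 FPKM in WT HFD, and at 50.3, 22.1 and 99.0 FPKM in WT chow. All 3 KO HFD libraries were below all 3 KO chow libraries, and in WT the groups overlapped through WT chow 2 alone.

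The 3 enzymes that phosphorylate and decarboxylate mevalonate were less abundant per length, with means over the 12 libraries of 8.84 FPKM for Mvk, 20.8 FPKM for Pmvk and 6.08 FPKM for Mvd, against 26.5 FPKM for Acat2 and 43.9 FPKM for Hmgcs1. Mevalonate kinase Mvk (ENSMUSG00000041939, chromosome 5, 114444269 to 114460591, plus strand) was at 6.81, 7.21 and 12.3 FPKM in KO HFD 1 to 3, at 8.20, 13.8 and 12.0 FPKM in KO chow, at 4.72, 6.94 and 5.95 FPKM in WT HFD, and at 13.6, 9.12 and 5.45 FPKM in WT chow. Its KO HFD and KO chow ranges overlapped, because KO HFD 3 was within the KO chow range. Phosphomevalonate kinase Pmvk (ENSMUSG00000027952, chromosome 3, 89459118 to 89469013, plus strand) was at 9.38, 9.83 and 30.7 FPKM in KO HFD 1 to 3, at 22.4, 28.7 and 29.0 FPKM in KO chow, at 10.6, 13.2 and 9.05 FPKM in WT HFD, and at 31.0, 6.76 and 49.5 FPKM in WT chow. KO HFD 1 and 2 were below every KO chow library, whereas KO HFD 3 was above all 3. Mevalonate diphosphate decarboxylase Mvd (ENSMUSG00000006517, chromosome 8, 122433596 to 122443422, minus strand), which makes isopentenyl pyrophosphate, was at 3.63, 1.69 and 7.98 FPKM in KO HFD 1 to 3, at 9.67, 12.8 and 8.89 FPKM in KO chow, at 1.16, 2.01 and 1.65 FPKM in WT HFD, and at 11.6, 4.55 and 7.33 FPKM in WT chow. For Mvd the diets did not overlap within either genotype, with HFD the lower each time. It lies inside the predicted gene Gm20388 on the opposite strand, which had 0 reads in all 12 libraries. The strand setting of the counting is not given in the sources used here, so the overlap leaves the values of Mvd uncertain.

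**Figure D1:**
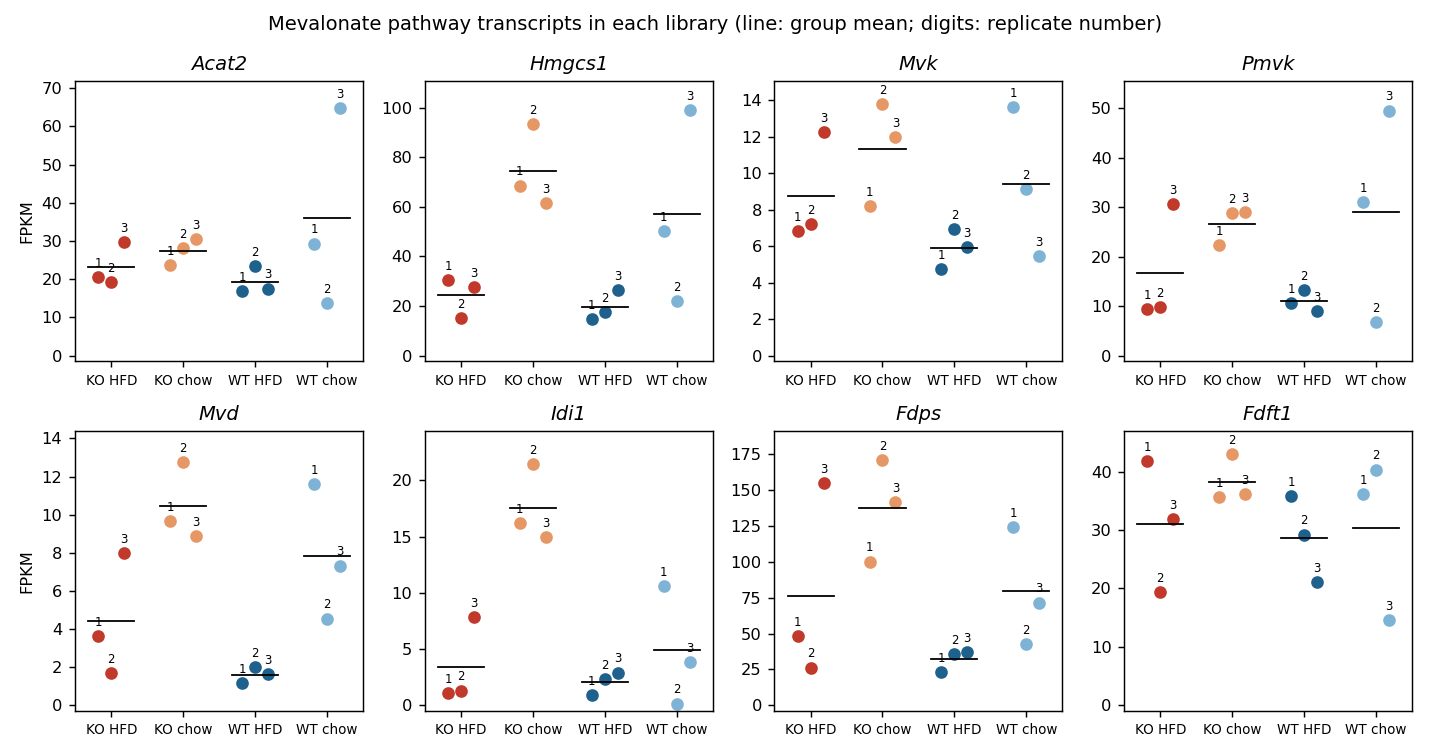
FPKM of the 8 members (vertical axes, 1 panel per gene) in each library, with groups in columns, dots for libraries, the replicate number above each dot and a line at the group mean. KO HFD 3 lies with the KO chow libraries for Mvk, Pmvk and Fdps and below them for Hmgcs1 and Idi1, and WT chow 2 and 3 spread widely for most genes.

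The last steps build the 5-carbon isomer, farnesyl pyrophosphate and squalene. Isopentenyl diphosphate isomerase Idi1 (ENSMUSG00000058258, chromosome 13, 8885501 to 8892451, plus strand) was at 1.09, 1.31 and 7.82 FPKM in KO HFD 1 to 3, at 16.2, 21.4 and 14.96 FPKM in KO chow, at 0.881, 2.32 and 2.91 FPKM in WT HFD, and at 10.6, 0.158 and 3.85 FPKM in WT chow. It had the widest spread of the 8, with a highest value 24.3 times the lowest over the 10 libraries, and the 3 KO chow libraries were above the other 9. The lowest value, in WT chow 2, rested on 9 reads (0.0722 to 0.300 FPKM, exact Poisson 95% interval, counting error only). The next lowest, in WT HFD 1, rested on 51 reads. Fdps (ENSMUSG00000059743, chromosome 3, 89093592 to 89101967, minus strand) encodes farnesyl diphosphate synthase, at the branch to prenylation, dolichol, ubiquinone and sterols. It was at 48.5, 26.2 and 154.9 FPKM in KO HFD 1 to 3, at 100.2, 171 and 142 FPKM in KO chow, at 23.4, 35.7 and 37.3 FPKM in WT HFD, and at 124.5, 42.9 and 71.7 FPKM in WT chow. KO HFD 3 held more Fdps than KO chow 1 and 3, while in WT the 3 HFD libraries were below the 3 chow libraries. Fdft1 (ENSMUSG00000021273, chromosome 14, 63145153 to 63177793, minus strand) encodes squalene synthase, the first step committed to sterols. It was at 41.8, 19.3 and 31.9 FPKM in KO HFD 1 to 3, at 35.6, 43.0 and 36.2 FPKM in KO chow, at 35.8, 29.2 and 21.0 FPKM in WT HFD, and at 36.1, 40.3 and 14.5 FPKM in WT chow. Its groups overlapped between the diets in both genotypes. Fdft1 overlaps Ctsb, a gene with up to 251 FPKM on the opposite strand, by 767 bases, and the strand setting of the counting is not given in the sources used here, so its values are uncertain.

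The high fat diet was compared with chow within the KO label first. With all 12 libraries, 0 of 8 members passed an adjusted p of 0.05 (limma on log2(FPKM + 1), Benjamini-Hochberg over 12251 genes), where 0% of all genes tested were called lower and 0.155% higher. At an unadjusted p under 0.05 there were 3 members, Hmgcs1, Idi1 and Mvd, all lower in KO HFD, beside 924 of all 12251 genes in either direction. The difference was below 0 for all 8, with a median of −1.02 on the log2 scale, against −0.06 over all genes tested and 56.1% of them below 0. The KO HFD and KO chow ranges did not overlap for 3 of 8 members, Hmgcs1, Mvd and Idi1, lower in KO HFD, as they did not for 21.6% of all genes in that direction.

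Without WT chow 2 and 3, Hmgcs1 and Idi1 fell in KO HFD relative to KO chow (2 of 8 members, where 6.85% of all 11870 genes tested were called lower and 1.8% higher). Over all genes that is 813 lower and 214 higher, a split that was 2165 and 167 with TPM and 546 and 467 with median-of-ratios scaling. Hmgcs1 averaged 24.4 ± 8.08 FPKM in KO HFD and 74.5 ± 16.8 FPKM in KO chow (SD, n = 3 each), a log2 difference of −1.61 with an SE of 0.29 and an adjusted p of 0.0275 by limma. Idi1 averaged 3.41 ± 3.82 FPKM in KO HFD and 17.5 ± 3.44 FPKM in KO chow (SD, n = 3 each), a log2 difference of −2.39 with an SE of 0.50 and an adjusted p of 0.0309 by limma. Both differences are the same with 12 libraries, where the SE was 0.49 for Hmgcs1 and 0.77 for Idi1 and the adjusted p 0.649 for both. Mvd averaged 4.43 ± 3.22 FPKM in KO HFD and 10.4 ± 2.05 FPKM in KO chow (SD, n = 3 each) and missed the threshold, with a log2 difference of −1.23, an SE of 0.36 and an adjusted p of 0.0608 by limma. Fdps (log2 difference −1.19) and Pmvk (−0.85) had adjusted p of 0.162 and 0.161, and Mvk (−0.35), Fdft1 (−0.36) and Acat2 (−0.25) had adjusted p of 0.371 to 0.426.

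These 2 calls depended on the libraries in the fit. With KO HFD and KO chow alone, 0 of 8 passed (0.0591% of all genes were called lower), with an adjusted p of 0.0753 for Hmgcs1 and 0.0754 for Idi1. When 1 more library was left out of the 10, 0 members passed without KO HFD 1, KO chow 1, KO chow 2 or WT HFD 2. The shares of all genes called lower were 0.0681%, 0.0168%, 0.00843% and 0.253% in that order. The differences in those 4 fits were between −1.79 and −1.43 for Hmgcs1 and between −2.44 and −2.02 for Idi1, about as large as with 10 libraries. Hmgcs1 alone passed without KO HFD 2 (−1.31, adjusted p 0.0372), where 4.35% of all genes were called lower. Without KO HFD 3, where 0.495% of all genes were called lower, there were 4, namely Idi1 (log2 difference −3.06, adjusted p 0.00250), Pmvk (−1.38, 0.0156), Mvd (−1.68, 0.0306) and Fdps (−1.88, 0.0406), and Hmgcs1 missed the threshold at −1.72 with an adjusted p of 0.0513. The summed level of 8 pancreatic enzyme markers, which was 41.3 to 70.0 FPKM in KO HFD and 0.357 to 0.736 FPKM in KO chow, moved with this comparison, with 7 of the 8 at 0 in all KO chow libraries, and so did that of 8 heart muscle markers, at 1.87 to 2.98 FPKM in KO HFD and 7.24 to 24.7 FPKM in KO chow, with 4 of the 8 at 0 in all KO HFD libraries. Their part in the result was not tested, and in bulk samples fewer cells of a type and less RNA per cell cannot be told apart.

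**Figure D2:**
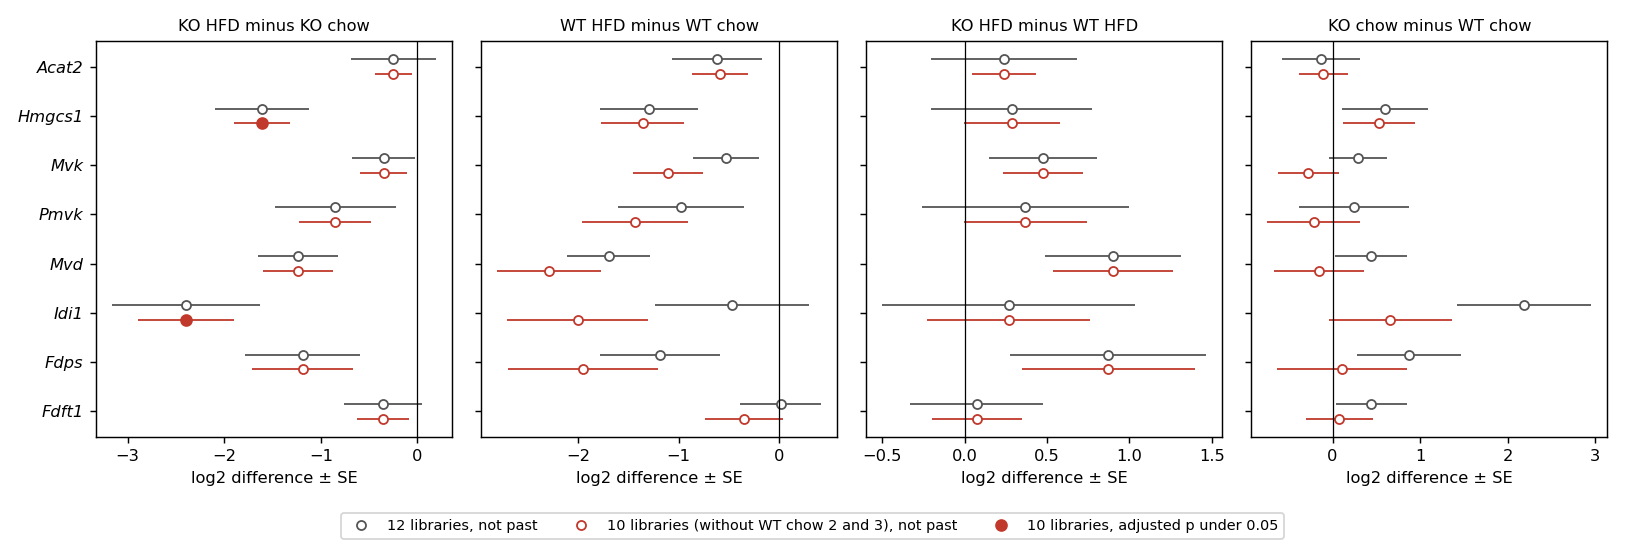
Log2 differences of the 8 members (horizontal axes; log2(FPKM + 1) scale, bars ± 1 SE of the limma fit) for 4 comparisons, grey with all 12 libraries and red with the 10 libraries without WT chow 2 and 3. Filled dots mark an adjusted p under 0.05, which Hmgcs1 and Idi1 reached for KO HFD minus KO chow with 10 libraries.

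The 3 KO HFD libraries differed among themselves along the pathway. Set against the KO chow mean, KO HFD 1 had 7 of 8 members lower, with a median log2 difference of −1.27, and KO HFD 2 had all 8 lower, with a median of −1.71. KO HFD 3 had 4 of 8 lower and a median of −0.06. Its Hmgcs1 difference was −1.37, beside −1.25 in KO HFD 1, and its Idi1 difference was −1.06, beside −3.13 in KO HFD 1. Acat2, Mvk, Pmvk and Fdps stood above the KO chow mean in that library by 0.12, 0.13, 0.20 and 0.20. The ratio of Fdps to Hmgcs1 in FPKM was 5.60 in KO HFD 3, 1.60 in KO HFD 1 and 1.72 in KO HFD 2, against 1.46 to 2.31 in KO chow. The other 6 libraries lay at 0.724 to 2.47. The 3 WT HFD libraries each had all 8 members below the KO chow mean, with medians of −1.74, −1.42 and −1.45. Summed over the 8 genes, expression was 162, 100.1 and 303 FPKM in KO HFD 1 to 3 and 284, 412 and 335 FPKM in KO chow. It was 108, 130.4 and 122 FPKM in WT HFD and 307, 139.8 and 316 FPKM in WT chow. KO HFD 3 was the only HFD library whose sum was within the KO chow range.

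**Figure D3:**
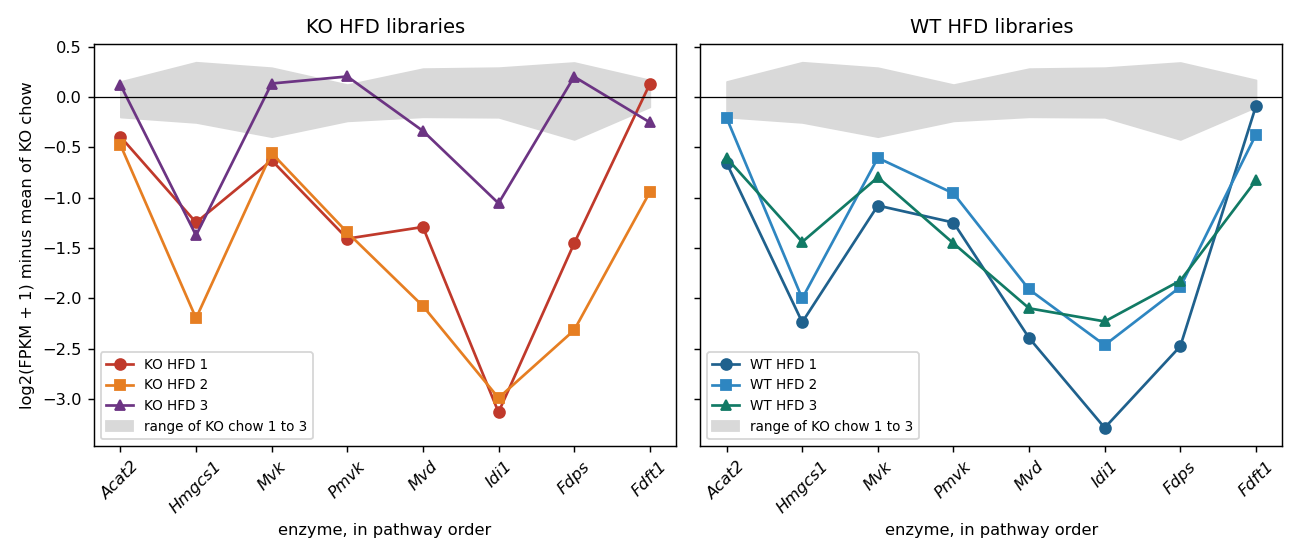
Log2(FPKM + 1) minus the KO chow mean (vertical axis) for the 8 members in pathway order, 1 line per library, KO HFD on the left and WT HFD on the right, with the KO chow range in grey. KO HFD 1 and 2 and the 3 WT HFD libraries dip at Hmgcs1 and again at Idi1, while KO HFD 3 dips at Hmgcs1, returns to the grey range at Mvk and Fdps and just above it at Pmvk, and dips less at Idi1.

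In WT, the comparison of the diets rests on chow libraries of which only WT chow 1 resembles the rest. With 12 libraries, 0 of 8 members passed (limma, with 0% of all genes tested called in either direction). An unadjusted p under 0.05 was held by 1807 of all 12251 genes and by 2 of 8 members. These were Mvd, with a log2 difference of −1.69, an SE of 0.41 and an adjusted p of 0.307, and Hmgcs1, with −1.29, an SE of 0.49 and an adjusted p of 0.313. Mvd averaged 1.61 ± 0.429 FPKM in WT HFD and 7.83 ± 3.55 FPKM in WT chow (SD, n = 3 each). The median over the 8 was −0.80, against 0.02 over all genes tested. The WT HFD and WT chow ranges did not overlap for Mvd and Fdps (2 of 8, lower in WT HFD; 4.35% of all genes). Without WT chow 2 and 3, all 8 members were lower in each WT HFD library than in WT chow 1, as were 21.8% of all genes, with a median difference of −1.40. The differences were −2.29 for Mvd, −2.002 for Idi1, −1.95 for Fdps, −1.43 for Pmvk, −1.36 for Hmgcs1, −1.10 for Mvk, −0.59 for Acat2 and −0.35 for Fdft1. None of the 8 passed in that fit (limma adjusted p of 1 for each), where 0.0253% of all genes were called lower, and 6 had an unadjusted p under 0.05. Leaving out WT chow 1 from the 12 libraries, which keeps the 2 that stand apart, gave a call for Mvd (log2 difference −1.40, adjusted p 0.0469), 1 of 8 where 6.76% of all genes were called lower.

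Averaged over both genotype labels, HFD minus chow was below 0 for all 8 members, against 54.1% of all genes tested with 12 libraries. With 12 libraries 0 of 8 passed (limma, with 0% of all genes tested called lower and 0.0653% higher). An unadjusted p under 0.05 was held by 4 of 8 members and by 553 of all 12251 genes. The most negative members were Mvd (−1.46, SE 0.29, adjusted p 0.284) and Hmgcs1 (−1.45, SE 0.34, adjusted p 0.6002). With 10 libraries 0 of 8 passed as well (0.101% of all genes called lower and 0.0758% higher), although 7 had an unadjusted p under 0.05, and the adjusted p was 0.0708 for Hmgcs1 (−1.48), 0.0829 for Mvd (−1.76) and 0.125 for Idi1 (−2.20). Without KO HFD 3 as well there were 4 calls, namely Idi1 (−2.53), Mvd (−1.99), Fdps (−1.92) and Pmvk (−1.41), with adjusted p of 0.00335 to 0.0252, where 0.31% of all genes were called lower. Leaving out WT chow 1 from the 12 gave a call for Mvd (−1.32, adjusted p 0.0277), where 0.912% of all genes were called lower. Among the 12 libraries, 0 of 8 members had all HFD libraries below all chow libraries (0.114% of all genes did), and among the 10 libraries 3 of 8 had, namely Mvd, Idi1 and Hmgcs1 (3.81% of all genes).

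Between the genotype labels on HFD, 0 of 8 members passed with 12 or with 10 libraries (limma), where 0.155% and 0.202% of all genes were called higher in KO HFD and 0% lower, and 0 had an unadjusted p under 0.05 with 12. The KO HFD means were above the WT HFD means for all 8, with log2 differences between 0.07 for Fdft1 and 0.90 for Mvd. Over all genes tested with 12 libraries, 54.1% were below 0 and the median was −0.03. Mvd averaged 4.43 ± 3.22 FPKM in KO HFD and 1.61 ± 0.429 FPKM in WT HFD (SD, n = 3 each). Its adjusted p by limma was 1 with 12 libraries and 0.377 with 10. With 10 libraries it was the 1 member of 8 with an unadjusted p under 0.05, beside 1513 of all 11870 genes. Fdps averaged 76.5 ± 68.8 FPKM in KO HFD and 32.1 ± 7.61 FPKM in WT HFD (SD, n = 3 each), and KO HFD 3 held the highest of the 6 values. For 0 of 8 members were all KO HFD libraries above all WT HFD libraries, as they were for 7.37% of all genes. Without KO HFD 3, the difference turned to −0.16 for Pmvk and −0.40 for Idi1. Marker sums differed here too. Pancreatic enzyme markers summed to 41.3 to 70.0 FPKM in KO HFD and 0.481 to 0.733 FPKM in WT HFD. Heart muscle markers summed to 1.87 to 2.98 and 12.1 to 35.8 FPKM in that order. Hepatocyte markers summed to 51163 to 74689 and 78031 to 85397 FPKM. Adipocyte, macrophage and endothelial sums overlapped. The part of these differences in the result was not tested.

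Between the genotype labels on chow, 0 of 8 members passed with 12 libraries (limma, with 0% of all genes called in either direction). Idi1 was the 1 member of 8 with an unadjusted p under 0.05, beside 2584 of all 12251 genes tested. Idi1 averaged 17.5 ± 3.44 FPKM in KO chow and 4.88 ± 5.31 FPKM in WT chow (SD, n = 3 each), a log2 difference of 2.19 with an SE of 0.77 and an adjusted p of 0.195. It was also the 1 member of 8 whose KO chow libraries were all above the WT chow libraries, as were 12.4% of all genes. Against WT chow 1 alone the difference for Idi1 was 0.66 (SE 0.70) and the median over the 8 members was −0.01, and 0 of 8 passed or had an unadjusted p under 0.05 (0.0168% of all genes were called lower and 0% higher). Without WT chow 1, Idi1 was called at 2.95 (adjusted p 0.0145), 1 of 8 where 16.5% of all genes were called higher, and the WT side of that fit is the pair that stands apart. The diet difference in KO minus that in WT gave 0 calls of 8 with either set of libraries (limma; 0.122% of all genes higher with 12 libraries and 0.0842% with 10, 0% lower with both), and 0 of 8 had an unadjusted p under 0.05. The largest in size with 12 libraries was −1.92 for Idi1 (SE 1.08, adjusted p 0.359), which was −0.39 (SE 0.86) with 10.

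Genes on either side of the 8 enzymes were compared for the diets within the KO label, where the list counts with 10 libraries stand beside the 6.85% of all genes called lower. With 12 libraries 0 genes passed in each list, and 5 of 12, 2 of 11 and 0 of 9 had an unadjusted p under 0.05, in the order of the lists below. Over all genes tested with 12 libraries, 924 of 12251 had such a p. Of the 12 enzymes that turn squalene into cholesterol, 6 of 12 fell in KO HFD with 10 libraries and 0 rose, with a list median of −1.22. Sqle, squalene epoxidase, which takes up the product of Fdft1, was at 1.31, 1.12 and 8.04 FPKM in KO HFD 1 to 3 and at 11.9, 16.3 and 12.2 FPKM in KO chow. It was at 0.971, 0.973 and 2.46 FPKM in WT HFD 1 to 3 and at 5.37, 1.31 and 14.2 FPKM in WT chow. Its log2 difference of −2.02 between the diets in KO (adjusted p 0.0397) stood near that of Idi1, and KO HFD 3 was the highest of the HFD libraries for both genes. The other 5 were Cyp51, which removes a methyl group of lanosterol (−1.88, adjusted p 0.0400), Sc5d, a sterol desaturase (−1.46, 0.0215), Hsd17b7, a keto-sterol reductase (−1.21, 0.0319), Lss, lanosterol synthase (−1.17, 0.0287), and Lbr, a sterol reductase of the nuclear envelope (−0.68, 0.0294). Sc5d was the 1 gene of these lists that also passed for the mean of both genotypes with 10 libraries (−1.25, adjusted p 0.0421).

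Of 11 genes of sterol sensing and uptake, 3 of 11 fell in KO HFD with 10 libraries and 0 rose, with a median of −0.71. They were Stard4, a carrier of cholesterol (−1.47, adjusted p 0.0252), Srebf2 (−0.80, 0.0399) and Scap, the escort of SREBP2 (−0.62, 0.0458). Srebf2 itself was at 5.89, 5.69 and 7.95 FPKM in KO HFD 1 to 3, at 13.6, 14.2 and 8.84 FPKM in KO chow, at 6.32, 7.42 and 8.12 FPKM in WT HFD, and at 9.96, 3.38 and 7.51 FPKM in WT chow. Its KO HFD libraries were thus all below its KO chow libraries, as they were for 21.6% of all genes. The sterol sensor Insig1 (−0.99, adjusted p 0.178) missed the threshold. Of 9 genes of the isoprenoid branches to prenylation, dolichol or ubiquinone, 0 of 9 passed in KO by limma or limma-voom. Among them 2 of 9 had an unadjusted p under 0.05 by limma, beside 3556 of all 11870 genes. The median was −0.05, against −0.07 over all genes. The smallest p was that of Pggt1b, a protein prenylation gene (−0.70, adjusted p 0.0735). Without KO chow 1 or without KO chow 2 as well as WT chow 2 and 3, the count was 0 in each of these lists.

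**Figure D4:**
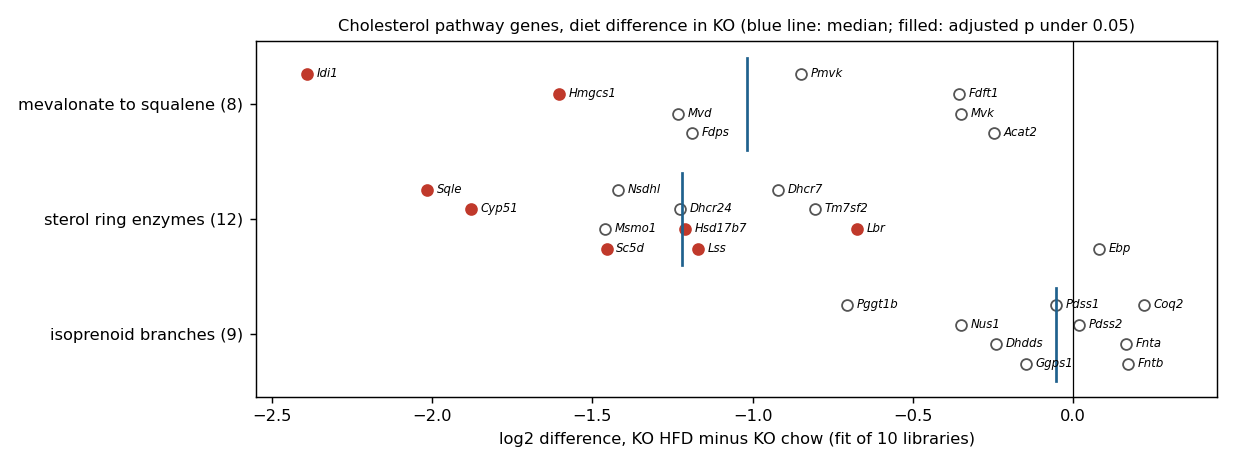
Log2 difference, KO HFD minus KO chow, with 10 libraries (horizontal axis) for each gene of the 8 members and of 2 other lists, the sterol ring enzymes and the isoprenoid branches (rows; points are spread vertically for legibility), with a blue line at each list's median. Filled points mark an adjusted p under 0.05, of which there were 2 of 8, 6 of 12 and 0 of 9, from the top row to the bottom.

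Among the paralogs and neighbours of the members, 0 of 6 genes tested passed between the diets in KO with 10 libraries, by limma or limma-voom. With TPM 1 of 6 passed, where 2165 of all 11870 genes were called lower and 167 higher. By limma without TPM, 1 of 6 had an unadjusted p under 0.05, beside 3556 of all 11870 genes. The mitochondrial thiolase Acat1 (0.39, adjusted p 0.415) and the Acat2 neighbour Acat3 (−0.16, 0.639) did not pass, nor did Tcp1, the chaperonin subunit gene beside Acat3 (0.10, 0.682). Idi2, the paralog of Idi1, was listed at 0 in 11 libraries and at 0.0283 FPKM in KO chow 3. Mmab, the cobalamin adenosyltransferase gene that shares the 209-base start region with Mvk, was at 5.83, 5.08 and 6.96 FPKM in KO HFD 1 to 3, at 7.32, 10.98 and 10.2 FPKM in KO chow, at 4.57, 6.84 and 4.97 FPKM in WT HFD, and at 10.4, 4.59 and 12.8 FPKM in WT chow. Its KO HFD libraries were all below its KO chow libraries, as they were for 21.6% of all genes. The difference of −0.59 missed the threshold (SE 0.19, limma adjusted p 0.0772 with 10 libraries).

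Mmab was also among the genes outside the 8 whose values over the 12 libraries were closest to those of the members. Likeness was taken as the root mean square difference of log2(FPKM + 1), centred on its mean, from the mean centred profile of the 8 members. Over the 12 libraries the 5 closest of the other genes were Rdh11 (0.22), Mmab (0.36), Gm17720 (0.38), Nsdhl (0.38) and Fam126a (0.38), against a median of 0.80 over all genes tested. Over the 10 libraries they were Slc30a10 (0.21), Rdh11 (0.21), Fasn (0.24), Dhcr7 (0.24) and Acss2 (0.28), against a median of 0.74, so that Rdh11, a retinol dehydrogenase gene, was named both times. The members themselves lay at 0.35 (Mvd) to 0.79 (Idi1) over the 12 libraries and at 0.24 (Pmvk) to 0.67 (Idi1) over the 10. Low values of this measure also go to genes that vary by about as much as the mean of the 8, and the points share their libraries and depth.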

How the data were processed

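RNA from 12 samples given as liver was sequenced, 3 in each of 4 groups, and the groups were taken from the genotype and treatment labels. The deposited values are FPKM per gene, made by the authors, and the table also holds gene length and coordinates, per the file headers. CASAVA, TopHat, STAR, HTSeq 0.6.1 and DESeq2 (version 2) are named, with the builds GRCm38 and mm10, per the submitters' processing notes. Which tool made the values, and with which strand setting, is not given in the sources used here. All 12 value columns were mapped by sample title, with 0 left unmapped. FPKM times gene length gave whole reads for 100% of values (tolerance 0.1 of a read). The range of reads on genes over the libraries is in the report.

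Values were taken as log2(FPKM + 1), which understates the changes of low genes. Genes with a mean of at least 0.5 FPKM over the fitted libraries were tested (12251 with 12 libraries and 11870 with 10) in limma 3.58.1 (R 4.3.3, 4 group means, moderation with a trend, Benjamini-Hochberg over all genes tested, threshold 0.05). The fit was tested on simulated data. P-values set a group difference against the spread between samples within the groups. With 10 libraries WT chow is 1 library and adds nothing to that spread. The members and lists were chosen with earlier results of these data known. Named were all members, a few regulators and targets, the paralogs and neighbours of members, every gene of another list past the threshold (otherwise that with the smallest p), and the 5 genes closest in profile; some genes that this rule takes in are not reported here. Alternatives were the pseudocount, the filter, TPM, median-of-ratios and quantile scaling, a replicate block, limma-voom on the recovered reads, only the 2 groups compared, and leaving out libraries. Combining the scalings or the block with the 10 libraries was chosen after seeing the data.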

Additional observations from a re-analysis of the deposited data

How the results depend on the processing

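With all 12 libraries, no planned change of pseudocount, filter, scaling, block or test model moved the count of members past the threshold away from 0 in any of the 6 comparisons. For KO HFD minus KO chow the count was 2 without WT chow 2 and 3, and with those libraries left out it was 3 with limma-voom, 3 with TPM, 2 with median-of-ratios scaling, 2 with quantile scaling and 2 with the replicate block. Leaving out 1 library in turn, from the 12 or from the 10, gave 0 to 4 members for KO HFD minus KO chow, 0 to 4 for the mean of both genotypes, 0 to 1 for WT HFD minus WT chow and 0 to 1 for KO chow minus WT chow. Over all genes, the 813 lower calls of KO HFD minus KO chow with 10 libraries were 0 with 12, 7 with only those 2 groups, 1079 with limma-voom, 394 with quantile scaling and 1 to 1174 when 1 more library was left out. With 10 libraries the 6 calls among the sterol ring genes were 10 with TPM, 8 with limma-voom, 4 with the block, 3 with median-of-ratios and 1 with quantile scaling; the 3 in sterol sensing and uptake were 6, 6, 2, 1 and 1 in that order and the isoprenoid branches had 2 with TPM and 0 under the other 4. The samples share only a replicate number: over 18 same-numbered pairs the deviations had a median correlation of −0.04, with 2 over 0.1. The replicate block gave 0 members in each comparison with 12 libraries. For the interaction of Idi1 it gave 0.10 without WT chow 2 and 3, where the fit without the block gave −0.39. With all libraries and no block the value was −1.92.

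Several directions turned. KO chow minus WT chow without WT chow 2 and 3 was −0.15 for Mvd, −0.28 for Mvk and −0.22 for Pmvk, against 0.44, 0.29 and 0.24 with 12 libraries, and the interaction for Fdps was 0.76, against −0.0058. For Fdft1, KO HFD minus WT HFD was −0.043 with TPM (also −0.043 without WT chow 2 and 3) and −0.17 without WT chow 2 and 3 and KO HFD 1. WT HFD minus WT chow for Fdft1 was −0.019 with median-of-ratios scaling, −0.054 with quantile scaling, −0.35 without WT chow 2 and 3 (with or without KO HFD 1), and in those libraries −0.37 with limma-voom, −0.34 with TPM, −0.37 with median-of-ratios, −0.33 with quantile scaling and −0.11 with the replicate block. Leaving out 1 library in turn, KO HFD minus WT HFD ran between −0.17 and 0.37 for Fdft1, −0.40 and 0.64 for Idi1 and −0.16 and 0.65 for Pmvk, and WT HFD minus WT chow ran between −0.52 and 0.28 for Fdft1 and between −2.22 and 0.29 for Idi1. The leave-one-out range of the Idi1 interaction was −2.68 to −0.09. The cause of these changes was not tested. TPM moved the median of all genes to −0.23 for KO HFD minus KO chow, −0.13 for KO HFD minus WT HFD, 0.25 for KO chow minus WT chow, 0.12 for WT HFD minus WT chow and −0.37 for the interaction. Depth limits Mvd and Idi1 in particular, with 39 and 51 reads in WT HFD 1, and Idi1 had 9 reads in WT chow 2.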
